A study of Mus musculus with 46 samples.

Results

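RNA from POMC neurons of fasted mice given leptin was compared with RNA from POMC neurons of fed mice, to ask whether leptin returned these neurons to the fed level or moved them past it. The members are the 4 libraries labelled for these states, 2 leptin-treated and 2 fed, out of 46 samples in the series, and the 2 libraries from fasted POMC mice were fitted in the same model so that each leptin level could be placed between the fed and the fasted one. The mice were males carrying the NuTRAP allele, in which Cre removes a stop cassette and switches on a GFP-tagged L10a ribosomal protein and an mCherry-tagged RANGAP, crossed to POMC-IRES-Cre. Fed mice had chow at will and received PBS, fasted mice were without food for 18 to 20 h and received PBS, and leptin-treated mice were fasted in the same way and received leptin at 5 mg/kg into the peritoneum. Tissue was taken 3 h after the injection from mice 6 to 11 weeks old, and each library came from the tagged ribosomes of 4 pooled arcuate nuclei. The protocol that gives the ages, the pooling and the fast is written for the AgRP line and is carried over here to the POMC line. A Cre driven by Pomc also tags any cell in which that gene was active earlier in life, and the pituitary holds cells that make Pomc too.

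POMC neurons of the arcuate nucleus make proopiomelanocortin, the precursor of alpha-MSH, which lowers food intake through melanocortin receptors. Many of them carry the leptin receptor, a cytokine receptor that acts through the kinase JAK2 and the transcription factor STAT3, and STAT3 in turn raises Socs3, whose product shuts the receptor down. Leptin in blood falls during a fast and rises again on refeeding.

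The pools carried the identity their label states. Pomc itself lay between 1085 and 2001 CPM (read counts scaled to their library's total, with TMM factors) in the 6 POMC libraries, against 17.9 to 44.7 CPM in the 11 AgRP libraries of the series, and Agrp showed the opposite order, with 5.69 to 26.7 CPM in POMC pools and 314 to 2170 CPM in AgRP pools. Total counts ran from 30704075 to 53217053 per POMC library. Astrocyte RNA was present, and several astrocyte markers followed the replicate number in every state, Slc1a2 most of all. Slc1a2, the main glutamate transporter of astrocytes, was at 5444, 6042 and 5033 CPM in replicate 1 of the fed, fasted and leptin states and at 22500, 25930 and 25450 CPM in replicate 2. The other 8 astrocyte markers together differed far less, at 826, 727 and 789 CPM in replicate 1 and 1140, 1160 and 1270 CPM in replicate 2. In fed mice Gfap (46.5 and 44.4 CPM) and S100b (38.7 and 37.7 CPM) were nearly level between the replicates. Aqp4, Aldh1l1, Slc1a3, Gja1, Gjb6 and Agt were higher in replicate 2 in every state, with Aqp4 at 128 and 237 CPM in fed mice. Genes of other lists did so too, such as Hlf at 97.94, 104.6 and 104.5 CPM in replicate 1 and 319.3, 273 and 300.1 CPM in replicate 2. Ribosomal RNA precursor (Rn45s) took 1.04% of counts in leptin replicate 1 and 0.0305% to 0.277% in the other 5 libraries. In pooled tissue of this kind, fewer cells of a type and less RNA per cell cannot be told apart.

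Few genes were called between leptin-treated and fed POMC pools, some in each direction. Of 13412 genes tested with edgeR's quasi-likelihood test, with the replicate number as a block, 44 (0.328%) were called, that is, they had a false discovery rate (FDR) below 0.05 and differed by more than 0.5 on the log2 scale, 26 higher (0.194%) and 18 lower (0.134%) in leptin-treated than in fed mice. For 9486 genes, 70.7% of those tested, the 95% interval of the log2 difference lay wholly within 0.5 of zero on either side. That share was much the same for fasted against fed mice (70%) and leptin against fasted mice (72.8%), so it is not particular to leptin, and without the block it was 29.7%. The calls rest on the block: without it the same 6 libraries gave 0 calls, with 155 genes higher and 127 lower at an unadjusted p under 0.05, against 1170 and 952 with it. The counts also moved with single libraries. Leaving out fed replicate 1 left 7 genes higher and 2 lower, of which 4 and 2 were among the 44. Leaving out leptin replicate 2 left 28 and 9, of which 10 and 7 were among them, and leaving out fed replicate 2 gave 209 and 144, with 22 and 17 among them.

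The same model placed the other pairs of states beside this one, with shared libraries. In fasted against fed mice 0 genes were higher and 3 lower (0.0224%), namely Asb4, Cd44 and Nptx2, with 986 genes higher and 991 lower at an unadjusted p under 0.05 and none called without the block. Against fasted mice, leptin-treated mice had 7 genes higher (0.0522%), namely Socs3, Sbno2, Etv6, Atf3, Jun, Nptx2 and the transcript AK140265, and 1 lower (0.00746%), Wdfy1, or 8 in all (0.0596%). Of the 26 genes above fed in leptin-treated mice, 0 were called in fasted against fed mice and 4 in leptin against fasted mice. Of the 18 below fed, 2 were called in fasted against fed mice (Asb4 and Cd44) and 0 in leptin against fasted mice. All of these comparisons share libraries, so the side on which a fasted level falls is no separate evidence.

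**Figure D1:**
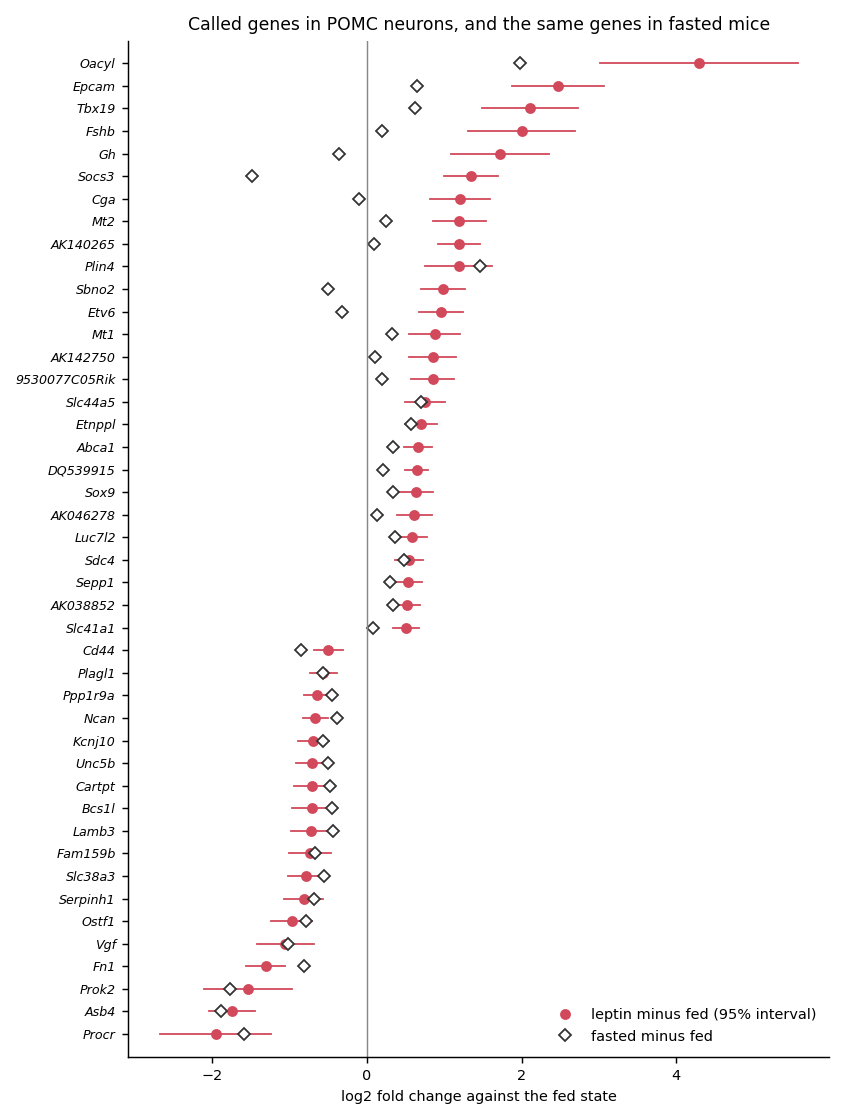
Log2 fold change against the fed state (x axis) of the 44 called genes (y axis) in POMC neurons. Red circles are leptin minus fed with the 95% interval, and open diamonds are fasted minus fed from the same fit. Both use the same 2 fed libraries. Socs3, Sbno2 and Etv6 lie above zero with leptin and below it in fasted mice, where none of the 3 was called.

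Socs3, Sbno2 and Etv6, from the list of STAT3 target and feedback genes, were past the fed level in leptin-treated mice, while their fasted levels were lower than fed in the fit but not called. Socs3, the suppressor of cytokine signaling that binds the active leptin receptor, was at 4.79 and 3.63 CPM in the fed libraries, 1.44 and 1.61 CPM in the fasted ones and 12.4 and 9.02 CPM in the leptin ones. The 3 states did not overlap, with leptin highest and fasted lowest. The log2 difference between leptin and fed mice was 1.35 (SE 0.16, FDR 0.0179), while fasted minus fed was -1.48 (FDR 0.062) and leptin minus fasted 2.82 (FDR 0.00188). Within the pairs, leptin over fed was 2.59-fold in replicate 1 and 2.49-fold in replicate 2.

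Sbno2, a co-regulator known to rise with STAT3 in cytokine-treated cells, took the same course at 13.4 and 11.6 CPM fed, 9.14 and 8.58 CPM fasted and 29.5 and 20.4 CPM with leptin. Its log2 difference from fed was 0.98 (SE 0.12, FDR 0.0217). Etv6, an ETS-family repressor, was at 13.7 and 17.7 CPM fed, 10.1 and 15.3 CPM fasted and 29.6 and 30.9 CPM with leptin, a difference of 0.96 (SE 0.13, FDR 0.0241). Fasted minus fed was -0.50 (FDR 0.178) for Sbno2 and -0.32 (FDR 0.328) for Etv6, whose fasted and fed libraries overlapped. For both genes the leptin libraries lay above every fed and fasted library, and both were called against fasted mice too, at 1.48 (FDR 0.00562) for Sbno2 and 1.28 (FDR 0.0149) for Etv6. Across all genes tested, 24.4% had leptin and fed libraries that did not overlap. Among the called genes this held for 16 of the 26 above fed and 14 of the 18 below. Without fed replicate 1 the differences from fed were 1.40 for Socs3 (FDR 0.0674), 0.91 for Sbno2 (FDR 0.0843) and 0.93 for Etv6 (FDR 0.0814), close to the values with it but short of the call.

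The promoters of these 3 genes are shown because each holds the palindrome that STAT dimers read, TTCNNNGAA, in capitals in the stretches of RefSeq sequence that follow (GRCm38.p6, the build of the count table, given 5′ to 3′ on the gene's strand). The Socs3 gene lies on chromosome 11 from 117966079 to 117970336, Sbno2 on chromosome 10 from 80056992 to 80106108 and Etv6 on chromosome 6 from 134035700 to 134270158. The Socs3 stretch precedes a RefSeq start that lies inside this span, at chr11:117969452-117969580 on the minus strand, and the 2 Sbno2 stretches end at the last base before 2 starts that also lie inside the gene's span, at chr10:80102703-80102808 and chr10:80101188-80101291 on the minus strand. In Etv6 the palindrome lies just after the start, at chr6:134035711-134035739 on the plus strand.
Socs3: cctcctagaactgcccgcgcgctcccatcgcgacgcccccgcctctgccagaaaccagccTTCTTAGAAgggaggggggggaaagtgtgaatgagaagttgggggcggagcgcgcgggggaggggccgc
Sbno2, first start: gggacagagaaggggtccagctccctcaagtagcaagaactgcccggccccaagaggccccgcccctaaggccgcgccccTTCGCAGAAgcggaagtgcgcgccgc
Sbno2, second start: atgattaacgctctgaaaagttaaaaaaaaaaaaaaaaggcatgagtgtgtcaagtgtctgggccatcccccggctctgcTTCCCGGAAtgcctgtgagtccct
Etv6: agtttctctcTTCCAGGAAggaaaacatt

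The palindrome was searched in windows from 250 bases before to 50 bases after each RefSeq start, where it reads the same on both strands. It was present in 8.3% of all 32851 windows and in 6.76% of the 12769 windows of genes tested here. Among the 26 genes above fed, 17 had a window, 21 windows in all, and 4 of these held it, those of Socs3, Sbno2 and Etv6. Counted by gene, 3 of the 17 held the palindrome, against 817 of the 9925 genes tested that had a window. The 14 genes below fed that had a window, 17 windows in all, held it in 0. A match of letters does not show binding, and no protein binding was measured in these mice.

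Of 16 tested members of the STAT3 list, 3 were called higher and 1 lower (0.194% and 0.134% of all genes tested), and 12 were not called. Like the other lists used here, this list was chosen with earlier results of these data known, so these counts are no separate evidence. The list's median log2 difference was 0.19, against -0.001 over all genes. Atf3, a stress-induced bZIP factor, followed the course of Socs3, at 4.58 and 2.33 CPM fed, 1.52 and 0.733 CPM fasted and 8.08 and 4.64 CPM with leptin. Its difference from fed was 0.90 (SE 0.16, FDR 0.0592), short of the call, and its difference from fasted mice was 2.50 (FDR 0.00491). Jun, an AP-1 subunit from the list of immediate early genes, was at 46.1 and 38.1 CPM fed and 83.8 and 62.4 CPM with leptin, 0.79 above fed (FDR 0.0563), and was called against fasted mice at 1.14 (FDR 0.0366). Against fed mice Atf3 was called in 4 of 14 alternatives and Jun in 7 of 15. Socs2 and Cish, feedback inhibitors of STAT5 signaling, differed from fed by 0.27 (FDR 0.411) and -0.03 (FDR 0.929), and the cytokine co-receptor Il6st by 0.04 (FDR 0.863). Within the STAT3 list, Asb4 went the other way and is described with the lower genes.

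Stat3 stood close to the fed level in leptin-treated mice. It was at 179 and 135 CPM fed, 111 and 103 CPM fasted and 180 and 135 CPM with leptin, so that each leptin library was at the level of the fed library of its number. The difference from fed was 0.01 on the log2 scale, with a 95% interval from -0.19 to 0.20. Fasted minus fed was -0.54 (FDR 0.0638) and leptin minus fasted 0.55 (FDR 0.0984), neither of them called. Nptx2, a pentraxin of excitatory synapses, was called in both of these comparisons. Its levels were 141 and 89.8 CPM fed, 84.3 and 54.3 CPM fasted and 128 and 86.8 CPM with leptin. It fell by 0.74 in fasted mice (FDR 0.0126), rose by 0.64 from fasted to leptin (FDR 0.0177), and ended at -0.10 from fed, with a 95% interval from -0.25 to 0.06.

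Of the receptor's signaling core, Stat3 included, 0 of 11 tested members were called, against 0.328% of all genes tested. Lepr, the receptor itself, was at 43.4 and 29.0 CPM fed, 33.9 and 21.4 CPM fasted and 29.3 and 21.0 CPM with leptin. Its log2 difference of -0.52 from fed (SE 0.09, 95% interval -0.72 to -0.31) had an FDR of 0.0562, and it was called in 7 of 15 alternatives. Jak2 differed by 0.22 (FDR 0.24), and the phosphatases that act on the pathway, Ptpn1, Ptpn2 and Ptpn11, by 0.17, 0.20 and 0.11, with FDR values from 0.359 to 0.593. Adaptors and the other STATs of the list, Sh2b1, Grb2, Irs1, Stat5a and Stat5b, lay between -0.16 and 0.17.

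**Figure D2:**
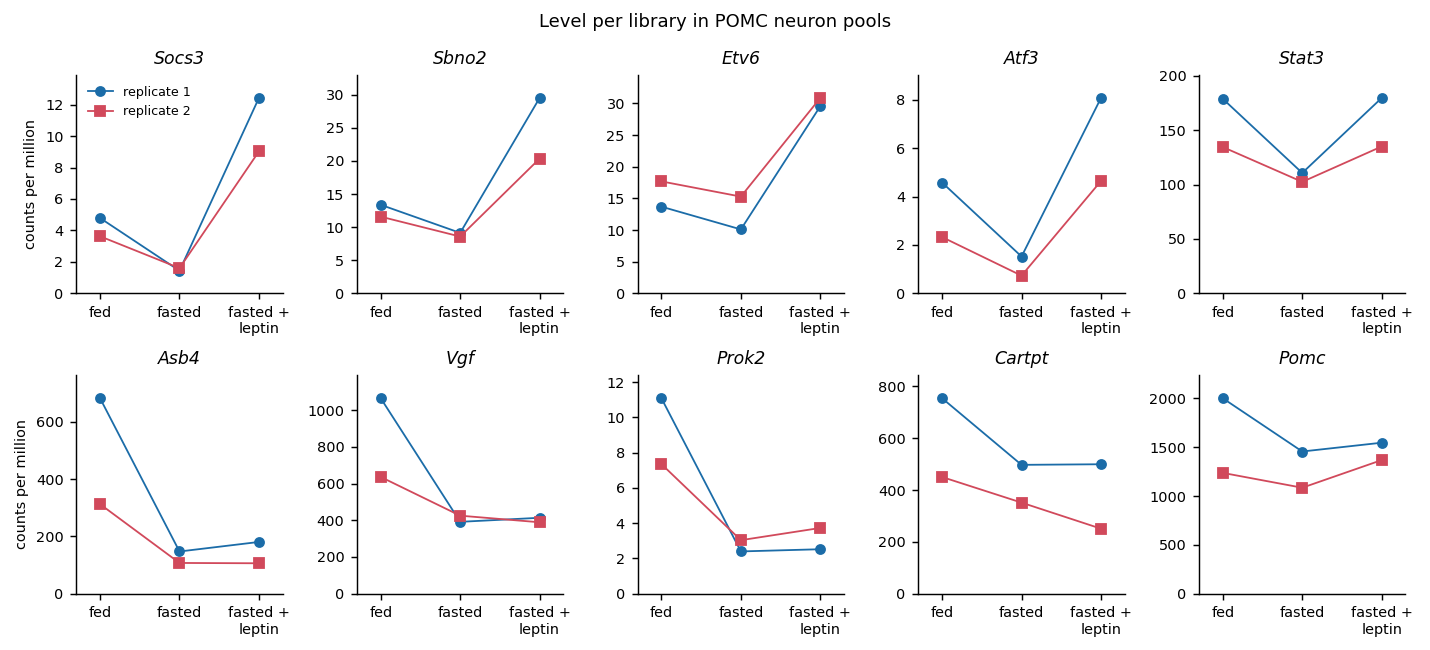
CPM (y axis, from zero) of 10 genes in the fed, fasted and leptin-treated POMC libraries (x axis). Points are single libraries, and lines join libraries of the same replicate number. Within each replicate number Socs3, Sbno2, Etv6 and Atf3 are lowest in fasted and highest in leptin-treated mice, Stat3 is level between fed and leptin, and Asb4, Vgf and Prok2 are level between fasted and leptin.

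The genes below the fed level were led by Asb4, the substrate-recognition subunit of a ubiquitin ligase that is abundant in arcuate neurons. Asb4 was at 682 and 312 CPM in fed libraries, 147 and 107 CPM in fasted ones and 181 and 106 CPM with leptin. Leptin and fasted libraries overlapped, and both lay below the fed ones. The log2 difference from fed was -1.75 with leptin (SE 0.13, FDR 0.00355) and -1.88 in fasted mice (FDR 0.00202), and leptin minus fasted was 0.13 (FDR 0.809). Asb4 kept its call in 14 of 15 alternatives, and lost it without the block.

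Vgf, which encodes a granin-like precursor of secreted peptides, had libraries of fasted and leptin-treated mice that overlapped. It was at 1065 and 636 CPM fed, 392 and 425 CPM fasted and 414 and 389 CPM with leptin, which is -1.06 from fed with leptin (SE 0.16, FDR 0.0452) and -1.02 in fasted mice (FDR 0.0638). Prok2, a secreted prokineticin that lowers feeding when given into the brain, was at 11.1 and 7.35 CPM fed, 2.40 and 3.04 CPM fasted and 2.52 and 3.73 CPM with leptin, or -1.53 from fed (SE 0.25, FDR 0.0492). In Vgf and Prok2 no fasted or leptin library reached the lower fed one, and without fed replicate 1 the differences were -0.66 (FDR 0.0659) and -1.02 (FDR 0.162). Prok2 also lost its call without leptin replicate 1 (-1.12, FDR 0.0544). Cd44, the hyaluronan receptor, was at 64.3 and 63.8 CPM fed, 33.3 and 37.97 CPM fasted and 44.0 and 46.5 CPM with leptin. With leptin it lay between the other states, -0.50 from fed (FDR 0.0492), after -0.85 in fasted mice (FDR 0.0126). The Cd44 call was lost without fed replicate 1 (-0.43, FDR 0.212), without leptin replicate 2 (-0.49, FDR 0.167) and without fasted replicate 2, where its size of -0.49 fell just short.

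Fn1, the matrix protein fibronectin, had the second lowest FDR among the lower genes. It was at 96.0 and 55.8 CPM fed, 47.2 and 37.1 CPM fasted and 37.7 and 23.2 CPM with leptin, a difference of -1.31 (SE 0.11, FDR 0.00431). Serpinh1, the collagen chaperone, Lamb3, a laminin chain, and Ncan, a brain proteoglycan, differed from fed by -0.82, -0.72 and -0.67, with FDR values of 0.0267, 0.0492 and 0.0122. Slc38a3 and Kcnj10, a glutamine transporter and a potassium channel, fell by 0.78 and 0.69 on the log2 scale, with FDR values of 0.0258 and 0.0217. The 9 astrocyte markers had 0 calls (0.328% of all genes tested) and a median of 0.03. Procr, the protein C receptor, was low throughout, at 2.25 and 1.54 CPM fed, 0.762 and 0.489 CPM fasted and 0.561 and 0.409 CPM with leptin (-1.95, SE 0.32, FDR 0.0492). Fn1 kept its call without any single library. Without fed replicate 1, Serpinh1, Lamb3, Ncan, Slc38a3 and Kcnj10 were at -0.76, -0.84, -0.61, -0.67 and -0.55, with FDR values from 0.0581 to 0.13, and without leptin replicate 2, Serpinh1, Lamb3 and Slc38a3 were at -0.82, -0.59 and -0.77, with FDR values from 0.0846 to 0.217. Procr lost its call without either leptin library, at -1.89 (FDR 0.073) without replicate 1 and -2.0 (FDR 0.131) without replicate 2. Ostf1, Unc5b, Bcs1l, Fam159b, Ppp1r9a and Plagl1 complete the lower genes apart from Cartpt, and ranged from -0.97 to -0.56. All of these lost their call without fed replicate 1, where they ranged from -0.91 to -0.46. All but Ppp1r9a also lost it without leptin replicate 2, and the leptin and fed libraries of Fam159b overlapped.

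Of the 2 peptide precursors that define these neurons, Cartpt was lower and Pomc was not called. Cartpt, which encodes the CART peptides, was at 754 and 450 CPM fed, 497 and 351 CPM fasted and 500 and 251 CPM with leptin, so the groups overlapped while each pair moved down. Its log2 difference was -0.71 (SE 0.11, FDR 0.0327), after -0.48 in fasted mice (FDR 0.125), and it was -0.53 (FDR 0.0577) without leptin replicate 2 and -0.72 (FDR 0.101) without fed replicate 1. Pomc was at 2001 and 1237 CPM fed, 1456 and 1085 CPM fasted and 1546 and 1368 CPM with leptin. Replicate 1 was lower with leptin than fed and replicate 2 was higher, and the difference was -0.11 (95% interval -0.36 to 0.14, FDR 0.658). The 5 other POMC neuron markers, the transcription factors Prdm12, Isl1, Tbx3, Nkx2-1 and Nhlh2, ranged from -0.30 to 0.12 with 0 calls, and summed marker levels were 3102 and 1949 CPM fed, 2400 and 1706 CPM fasted and 2434 and 1821 CPM with leptin.

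The Cartpt promoter is shown for the cyclic AMP response element TGACGTCA, in capitals, that it holds before a RefSeq start inside the gene's span, at chr13:99900728-99900855 on the minus strand (RefSeq, GRCm38.p6). This palindrome was in 1.79% of all windows and 2.97% of the windows of genes tested, in 1 of the 17 windows of lower genes and in 0 of the 21 windows of higher genes.
Cartpt: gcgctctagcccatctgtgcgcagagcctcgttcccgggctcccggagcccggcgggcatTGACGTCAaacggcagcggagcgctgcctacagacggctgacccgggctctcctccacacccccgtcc

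Genes of the anterior pituitary were higher in leptin-treated pools than in fed ones, and 3 of the 5 largest increases were among them. Tbx19, the transcription factor of pituitary corticotrophs and melanotrophs, was at 1.95 and 2.41 CPM fed, 2.74 and 3.91 CPM fasted and 4.99 and 14.9 CPM with leptin (2.11, SE 0.28, FDR 0.0241). Cga, the common subunit of the glycoprotein hormones, was at 5.42 and 3.65 CPM fed, 4.91 and 3.59 CPM fasted and 14.7 and 6.88 CPM with leptin (1.21, SE 0.17, FDR 0.0307). Fshb, the hormone-specific subunit of FSH, was at 1.58 and 0.670 CPM fed and 4.23 and 4.45 CPM with leptin (2.00, SE 0.31, FDR 0.0439). In these 3 genes both leptin libraries exceeded both fed ones. Gh, growth hormone, was seen only in the second replicates, at 2.52 CPM fed, 1.92 CPM fasted and 8.37 CPM with leptin, with 0 CPM in fed and leptin replicate 1 and 0.0282 CPM in fasted replicate 1, and was called (1.73, FDR 0.0492) on that pair.

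Of the 10 pituitary markers 7 were tested, and 3 were called higher (Tbx19, Cga and Gh) and 0 lower, against 0.194% and 0.134% of all genes tested. The whole list summed to 16.3 and 27.2 CPM fed, 15.5 and 24.5 CPM fasted and 32.1 and 56.7 CPM with leptin. Epcam, an epithelial adhesion molecule, was at 0.714 and 0.868 CPM fed and 2.83 and 6.04 CPM with leptin (2.47, FDR 0.0122). Oacyl, an acyltransferase-like gene, was at 0.399 and 0.690 CPM fed, 0.846 and 3.28 CPM fasted and 1.01 and 23.7 CPM with leptin (4.29, FDR 0.0241), so 1 library sets most of its difference. Without leptin replicate 2, Cga kept its call at 1.47 (FDR 0.00813), while Tbx19, Fshb, Epcam and Oacyl were at 1.42, 1.45, 2.03 and 1.87, with FDR values of 0.065, 0.104, 0.0577 and 0.295, and Gh fell under the filter on low levels. Cga lost its call without leptin replicate 1 (0.89, FDR 0.0662) and without fed replicate 1 (1.06, FDR 0.162). Without fed replicate 1, Fshb was at 2.57 (FDR 0.0549) and Gh at 1.71 (FDR 0.0787), and without fed replicate 2, Oacyl was at 2.06 (FDR 0.0802) and Gh at 3.09 (FDR 0.725). Pituitary corticotrophs and melanotrophs also make Pomc, and the part of pituitary-type RNA in the Pomc values or in any other result was not tested.

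**Figure D3:**
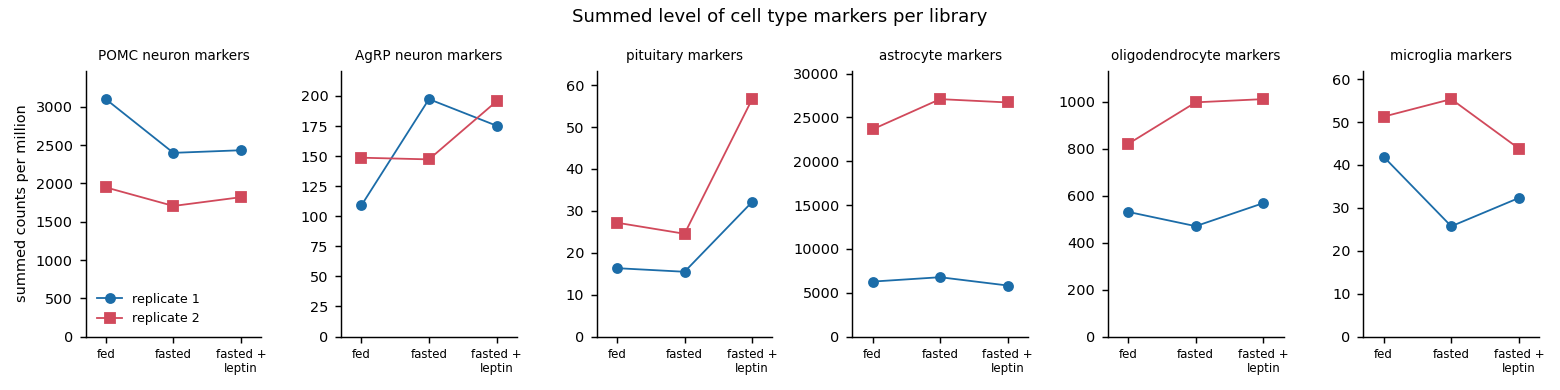
Summed CPM (y axis, from zero, a separate scale in each panel) of 6 lists of cell type markers in the fed, fasted and leptin-treated POMC libraries (x axis), with lines joining libraries of the same replicate number. Pituitary markers reach 32.1 and 56.7 CPM in the leptin libraries against at most 27.2 CPM in the others, and the astrocyte sum, most of which is Slc1a2, separates the replicate numbers.

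Apart from the pituitary markers and Cartpt among the POMC neuron markers, the cell type lists had 0 calls, against 0.328% of all genes tested. The 7 tested AgRP neuron markers were all above fed, with a median of 0.44, and Agrp was at 5.69 and 9.37 CPM fed, 26.7 and 10.5 CPM fasted and 24.0 and 13.4 CPM with leptin (1.21, FDR 0.171). Npy followed at 10.1 and 18.1 CPM fed, 50.5 and 19.1 CPM fasted and 45.5 and 29.0 CPM with leptin (1.31, FDR 0.163). Medians of the oligodendrocyte, microglia, tanycyte, vascular and other arcuate neuron lists lay between -0.22 and 0.06.

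Metallothioneins and a lipid droplet gene rose above the fed level. Mt2 was at 3.15 and 5.80 CPM fed, 3.61 and 7.12 CPM fasted and 8.16 and 12.0 CPM with leptin (1.20, SE 0.15, FDR 0.0217). Mt1 was at 10.7 and 19.6 CPM fed, 14.4 and 23.5 CPM fasted and 24.6 and 29.1 CPM with leptin (0.88, SE 0.14, FDR 0.0492). Plin4, a perilipin that coats lipid droplets, was at 1.37 and 3.02 CPM fed, 4.74 and 7.08 CPM fasted and 3.70 and 6.21 CPM with leptin (1.19, SE 0.19, FDR 0.0492). Its fasted minus fed difference of 1.46 was not called (FDR 0.062). Without fed replicate 1, Mt2, Mt1 and Plin4 were at 1.14, 0.68 and 1.00, with FDR values of 0.0787, 0.176 and 0.162, and Plin4 was at 1.23 (FDR 0.178) without leptin replicate 2. These 3 are the called members of the glucocorticoid list, whose 16 tested members had a median of 0.26, 14 of them above zero. At an unadjusted p under 0.05, 11 of the 16 were higher and 1 lower, against 8.72% and 7.1% of all genes, and 0.194% of all genes were called higher. Mt1 and Mt2 bind zinc and copper and respond to metals as well as to the hormone. Fkbp5, a glucocorticoid target that restrains the receptor, differed by 0.39 (FDR 0.277) and Tsc22d3 by -0.07 (FDR 0.749).

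Abca1 and Slc41a1 were higher by smaller amounts. Abca1, the cholesterol exporter, was at 83.9 and 97.4 CPM fed, 115 and 114 CPM fasted and 144 and 142 CPM with leptin (0.66, SE 0.08, FDR 0.0217). Slc41a1, a magnesium transporter, was at 53.3 and 72.7 CPM fed, 56.9 and 76.6 CPM fasted and 77.6 and 101 CPM with leptin (0.51, SE 0.07, FDR 0.0307). In both genes the leptin libraries lay above the fed ones. Without fed replicate 1, Abca1 was at 0.55 (FDR 0.0787) and Slc41a1 at 0.48 (FDR 0.162), and Slc41a1 also lost its call without leptin replicate 1 (0.47, FDR 0.0282) and without leptin replicate 2 (0.55, FDR 0.0629). Slc44a5, Etnppl and Sdc4 differed from fed by 0.75, 0.70 and 0.55 with leptin and by 0.70, 0.57 and 0.48 in fasted mice, where none was called. The others were Sox9, Luc7l2, Sepp1, 9530077C05Rik and 5 transcripts listed without a gene symbol, and they ranged from 0.51 to 1.19. The library kit does not keep strand, so reads of overlapping antisense transcripts cannot be told apart from those of these genes.

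The lists of pathways outside the leptin loop had few calls, as did all genes tested, of which 0.328% were called. At that share a list of this size can be expected to hold few calls or none, so a low count is no result about the list. Of 14 prohormone processing and granule genes, 1 was called, Vgf. The convertases Pcsk1 and Pcsk2, which cut POMC into its peptides, differed from fed by -0.09 (FDR 0.667) and 0.27 (FDR 0.137), and Cpe, Pam and Scg2 by 0.08, -0.17 and -0.14. Cholesterol synthesis genes had 0 of 21 called, with 20 members below zero and a median of -0.24. Of the 21, 10 were lower and 0 higher at an unadjusted p under 0.05, against 7.1% and 8.72% of all genes. Among them Hmgcs1, which makes HMG-CoA, was at 245 and 237 CPM fed, 190 and 183 CPM fasted and 187 and 188 CPM with leptin (-0.36, FDR 0.0625). Msmo1, a sterol demethylase, was at -0.44 (FDR 0.0966).

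Endoplasmic reticulum stress genes had 0 of 27 called (0.328% of all genes tested), 19 members below zero and a median of -0.13. At an unadjusted p under 0.05, 12 were lower and 1 higher (7.1% and 8.72% of all genes), and the chaperone Hspa5 stood at -0.36 (FDR 0.0766). Respiratory chain genes had 0 of 69 called and a median of -0.08, with 64 members below zero, and ribosomal protein genes 0 of 77 and 0.01. Immediate early genes had 0 of 19 called and a median of 0.07. Within that list Fos was at 9.89 and 9.09 CPM fed and 16.9 and 14.03 CPM with leptin (0.70, FDR 0.123), while Fosb was at 9.96 and 15.5 CPM fed and 3.81 and 10.47 CPM with leptin (-0.91, FDR 0.0755).

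Of the clock genes 0 of 14 were called (0.328% of all genes tested), with Cry1 at 0.51 (FDR 0.0638). The fuel switch genes had 0 of 19 called and Txnip at 0.82 (FDR 0.13), and the insulin receptor and FoxO genes 0 of 16 and Bcl6 at 0.66 (FDR 0.0811). Interferon genes showed 0 of 14 called and a median of -0.20, with Irf3 at -0.56 (FDR 0.161) and Irf9 at 0.39 (FDR 0.172). Of the receptors of feeding circuits 0 of 18 were called, with the cannabinoid receptor Cnr1 at 0.39 (FDR 0.0747) and Npy1r at -0.29 (FDR 0.0966). The 4 tested acute-phase-like genes had 0 calls. Of these Serpina3g was at 1.13 and 0.907 CPM fed and 3.73 and 2.07 CPM with leptin (1.48, FDR 0.0544), and Serpina3i differed by 1.02 (FDR 0.088) and Serpina3n by 0.28 (FDR 0.23). The Serpina3 genes are related copies, so reads may be split among them, which was not tested.

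**Figure D4:**
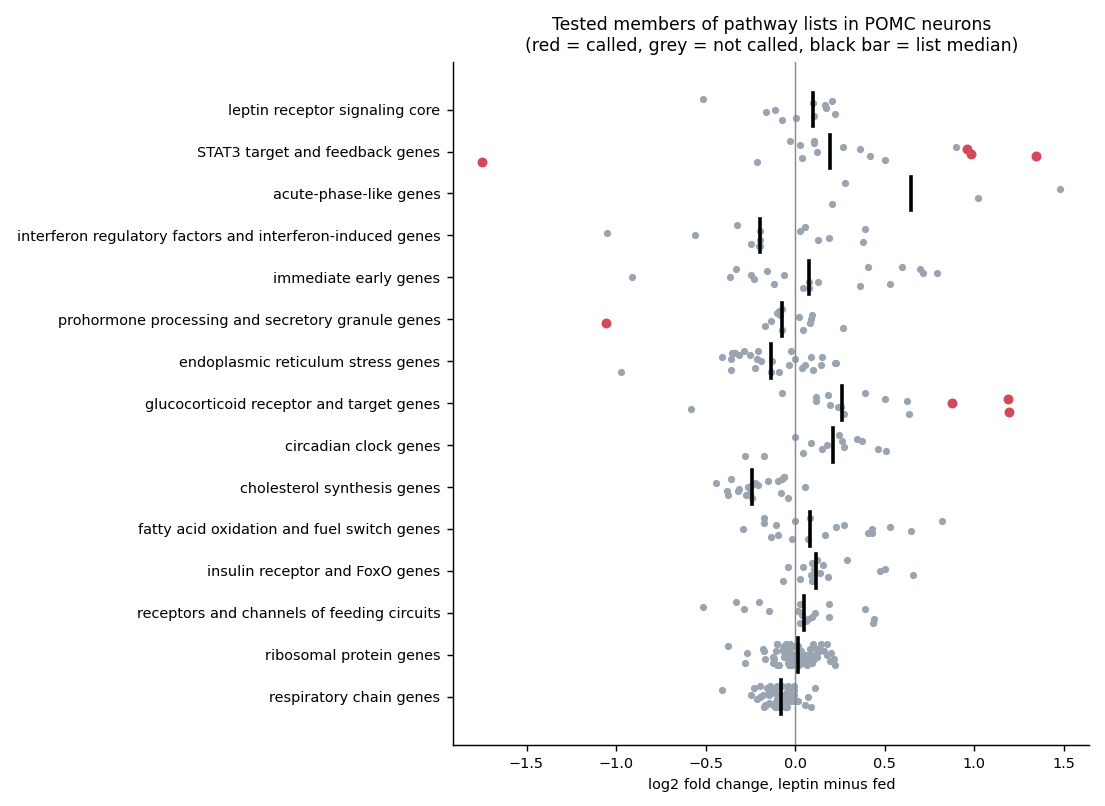
Log2 fold change of leptin minus fed (x axis) for the tested members of 15 pathway lists (y axis) in POMC neurons. Red points were called, grey points were not, and black bars are list medians. Calls fall in 3 lists, and the medians of the larger lists lie near zero.

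The difference between leptin-treated and fed mice was set against that in AgRP neurons, the arcuate neurons that drive feeding. These came from other mice of the same design (3 fed, 4 fasted and 4 leptin-treated libraries). The leptin-treated mice had also been fasted, so in both neuron types this difference holds the fast as well as leptin. There 1148 of 13401 genes were called between leptin and fed (8.57%), 715 higher (5.34%) and 433 lower (3.23%). Group sizes differ, so the counts of the neuron types are not compared, and the difference of the differences was tested gene by gene in a joint model of 17 libraries. It called 717 of 13435 genes (5.34%), 248 (1.85%) with a more positive and 469 (3.49%) with a more negative difference in POMC neurons. With no block this became 3 and 22 genes.

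Socs3, Sbno2 and Etv6 were called higher in both neuron types. In AgRP neurons Socs3 was 1.76 above fed (FDR 2.47e-06) and Etv6 1.41 (FDR 2.41e-06), and the differences of POMC minus AgRP were -0.40 (FDR 0.233) and -0.44 (FDR 0.112), not called. For Sbno2, at 1.83 in AgRP neurons, the difference of -0.83 was called (FDR 0.00995). Atf3 reached 3.06 in AgRP neurons, and the difference of -2.15 was called (FDR 0.00557). Plagl1 and Ncan, both lower in POMC neurons, were also lower in AgRP neurons, at -0.64 and -0.59, with differences of 0.10 (FDR 0.761) and -0.06 (FDR 0.816).

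Several named genes had opposite signs in the 2 neuron types, the leptin receptor and Vgf among them. Lepr stood 1.30 above fed in AgRP neurons and -0.52 from fed in POMC neurons, a difference of -1.80 (SE 0.21, FDR 0.000201). Vgf was 2.22 above fed in AgRP neurons against -1.06 here, a difference of -3.26 (SE 0.23, FDR 3.17e-06), and Asb4 was 0.71 above against -1.75 here, a difference of -2.44 (FDR 1.42e-05). Procr was 2.35 above in AgRP neurons and -1.95 here. In AgRP libraries Procr was at 0.46 to 1.05 CPM fed, 1.94 to 6.13 CPM fasted and 1.51 to 7.55 CPM with leptin. The paper reports Vgf among the genes that fasting induced in AgRP neurons. In leptin against fed mice the fast and leptin cannot be told apart, for Vgf or for the other genes. The chaperones Hspa5 and Manf were 0.92 and 1.07 above fed in AgRP neurons, and the differences of POMC minus AgRP were -1.26 (FDR 1.45e-05) and -1.40 (FDR 1.03e-05). Scg2, a secretogranin, was at 0.94 in AgRP neurons and -0.14 here, and Nptx2 at 2.01 and -0.10, with both differences called (FDR 0.000359 and 4.44e-05).

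**Figure D5:**
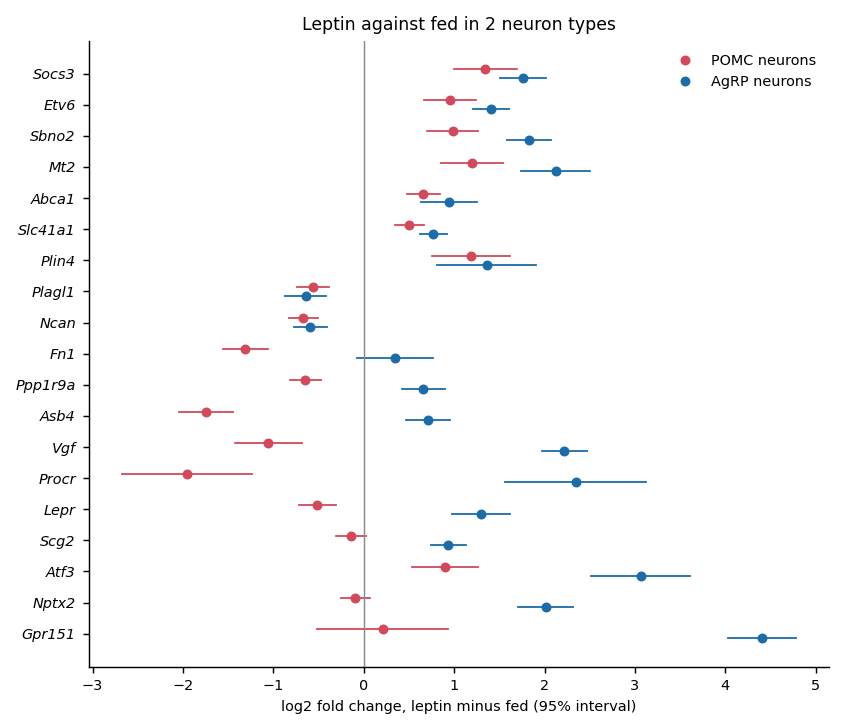
Log2 fold change of leptin minus fed (x axis) with the 95% interval for 19 genes (y axis) in POMC neurons (red) and in AgRP neurons (blue), each from its own fit. Socs3, Etv6 and Sbno2 lie above zero in both, while Vgf, Asb4, Procr and Lepr lie below zero in POMC neurons and above it in AgRP neurons.

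Genes called in AgRP neurons were then looked up in the POMC fit. Of the 715 higher genes 647 were tested in POMC neurons, where 8 were called higher (1.24%, against 0.194% of all genes) and 4 lower (0.618%, against 0.134%), with a median of 0.09 here and 0.70 in AgRP neurons. At an unadjusted p under 0.05, 24.6% of them were higher in POMC neurons (8.72% of all genes) and 8.66% lower (7.1%). Of the 433 lower genes 423 were tested, 0 were called higher (0.194% of all genes) and 7 lower (1.65%, against 0.134%). Their median was -0.12 here and -0.63 in AgRP neurons. At an unadjusted p under 0.05, 20.3% of them were lower in POMC neurons (7.1% of all genes) and 2.6% higher (8.72%).

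Genes that the study names for leptin against fasting in AgRP neurons, chosen there on the AgRP libraries, were looked up in POMC neurons. The POMC values given are for leptin against fed, which is not the contrast that named them. Of the 20 tested, 4 were called, all higher (Socs3, Sbno2, Abca1 and Slc41a1), against 0.194% of all genes called higher and 0.134% lower, and 16 were not. Against fasted POMC mice, Socs3 and Sbno2 were called too, while Abca1 (0.32, FDR 0.379) and Slc41a1 (0.42, FDR 0.114) were not. Adgrg6, an adhesion G protein-coupled receptor, was at 5.71 and 5.01 CPM fed and 2.80 and 2.84 CPM with leptin (-0.93, FDR 0.0882). Drd1, the D1 dopamine receptor, was at 8.23 and 7.65 CPM fed and 15.6 and 12.4 CPM with leptin (0.82, FDR 0.0585). Gpr151, an orphan receptor, was at 1.45 and 0.907 CPM fed and 1.32 and 1.37 CPM with leptin, a difference of 0.21 with a 95% interval from -0.51 to 0.93, against 4.40 in AgRP neurons. Stat2 differed by 0.36 (FDR 0.332) and Man2a1 by 0.25 (FDR 0.225). Acvr1c and Otp, which the paper names as repressed by leptin in AgRP neurons, differed by 0.18 (FDR 0.547) and 0.10 (FDR 0.761).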

How the data were processed

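RNA was purified on GFP-tagged ribosomes, depleted of ribosomal RNA and made into Nextera XT libraries, which do not keep strand. The authors mapped reads to mm10 (HISAT2) and assigned them to genes (featureCounts) using an annotation trimmed of overlapping transcripts; the deposited values used here are these raw counts, 1 column per library. Their log2 CPM tables were not used, and libraries of whole arcuate nucleus were not analysed here. Genes with a mean over 1 CPM were tested with edgeR 4.0.16 (TMM, quasi-likelihood, Benjamini-Hochberg) in R 4.3.3; DESeq2 1.42.0 and limma 3.58.1 served as alternatives, and the steps were tested on simulated data. The POMC model held 6 libraries, state and replicate number. Log2 fold changes and intervals are model values, and CPM values use TMM factors. Genes named are the 12 largest called changes each way with libraries that do not overlap, all tested members of 4 leptin and POMC lists, up to 3 of each other list, genes the study names for AgRP neurons, and the 5 largest POMC minus AgRP differences each way; others named were chosen after their values were seen. Comparison, members and lists were chosen with earlier results of these data known. Of the 44 called genes 37 matched RefSeq symbols (GRCm38.p6).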

Additional observations from a re-analysis of the deposited data

Results flagged for a closer look

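These results differed between POMC and AgRP neurons by the test of the difference itself in the joint edgeR model, as the 5 largest called differences in each direction. All values are log2, leptin against fed, POMC minus AgRP. Above zero were Oacyl at 4.42 (FDR 0.00988), Tbx19 at 2.57 (FDR 0.00335) and Epcam at 2.05 (FDR 0.0176). In AgRP libraries these 3 genes stayed at or under 1.09 CPM, below the level for a separate test, so their differences rest on the POMC libraries. Sec14l3, at 1.99 (FDR 0.0142), was 0.32 in POMC neurons (FDR 0.489) and -1.66 in AgRP neurons. Msln, at 1.83 (FDR 0.000555), was 0.34 in POMC neurons (FDR 0.427) and -1.48 in AgRP neurons.

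Below zero were Timp1 at -4.58 (FDR 0.000888), Procr at -4.29 (FDR 0.000681), Gpr151 at -4.18 (FDR 1.56e-05), Sphk1 at -4.13 (FDR 0.00194) and Steap4 at -4.11 (FDR 0.00164). Timp1, an inhibitor of metalloproteases, was at 8.30 to 13.7 CPM in leptin-treated AgRP libraries, and at 2.08 and 0.946 CPM fed and 0.785 and 0.890 CPM with leptin in POMC libraries. Steap4, a metalloreductase, was at 5.58 to 18.6 CPM in leptin-treated AgRP libraries and at 0.785 and 1.16 CPM in leptin-treated POMC libraries. Sphk1, sphingosine kinase, was at 1.65 and 0.626 CPM in the latter, against 10.6 to 28.1 CPM. Timp1, Sphk1 and Steap4 missed the POMC filter on low levels and have no POMC test of their own. In Procr alone of the 5 was the POMC difference called.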

How the results depend on the processing

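No called or named gene reversed a called direction under any alternative. The replicate block decides the count: with no replicate block 0 genes were higher and 0 lower (44 calls lost). Labels do not say what the number marks; deviations of same-numbered libraries from their state means correlated at 0.733 to 0.77, those of other numbers at -0.77 to -0.733, values that mirror each other with 2 libraries a state. Higher and lower counts were 153 and 84 with only the leptin and fed libraries, 67 and 37 with DESeq2, 52 and 44 with library size scaling, 14 and 10 with no low count filter, and 14 and 10 with a mean over 5 CPM. RLE scaling left 19 higher and 11 lower. limma-voom gave 18 and 15, and edgeR's older robust test 38 and 25. Leaving out single libraries gave 7 to 209 higher and 2 to 144 lower genes, lowest for both without fed replicate 1. AK140265, Asb4 and Fn1 kept their call in 14 of 15 alternatives, Socs3, Sbno2 and Etv6 in 13, Cartpt in 10, Vgf in 8 and Gh in 5 of 13. POMC minus AgRP counts, 248 and 469, became 3 and 22 with no replicate block. With 2 libraries a group, each of pooled animals, p-values measure the spread between these libraries only.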
